A study of Drosophila melanogaster with 2 samples.

Results

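A region was counted as strong in replicate 2 only when it was among the 4782 highest-signal regions of replicate 2 and no summit of the 4782 highest-signal regions of replicate 1 lay within 200 bp of its own summit. The regions were thus chosen by the signals of both replicates, on the arms of chromosomes 2 and 3, on chromosome 4 and on the X. The rule selected 1869 of the 4782 strong replicate 2 regions. The other 2913 had a strong replicate 1 summit within 200 bp and are called matched, and 1951 strong replicate 1 regions had no strong replicate 2 summit within that distance. Both replicates were chromatin immunoprecipitation and sequencing (ChIP-seq) libraries of whole Drosophila melanogaster embryos of both sexes, aged 0 to 24 h, from a transgenic line that stably expressed Lbe with GFP fused to its C-terminus. Lbe-GFP was precipitated with an antibody against GFP after sonication to fragments of 200 to 800 bp. The samples form 1 group of 2 biological replicates, so no condition could be compared and no test between groups was possible. The tagged protein comes from an insertion, the embryos mix all tissues and ages of the collection, and the control named for the calling was not analysed here. The files list regions and no reads, so depth is unknown. Positions are given in dm6. Intervals on shares are 95% Wilson intervals that cover the counting of regions only.

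Lbe (Ladybird early) is a homeodomain protein, encoded beside its paralogue lbl in the NK gene cluster, and is known for roles in muscle and heart progenitor identity and in epidermal patterning. Homeodomains commonly bind short A+T-rich cores such as TAATTA, and TAACTA is a core associated with the Ladybird proteins. GAGA repeats, by contrast, are the binding sequence of GAGA factor, encoded by Trl, and of Pipsqueak, encoded by psq. GAGA factor is known for keeping promoters free of nucleosomes in many tissues.

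The summit windows of the strongest regions are shown first because base composition and repeats are what the later comparisons turn on. Each window has 201 bases of the dm6 plus strand, centred on the summit and read from the RefSeq release 6 genome. Capitals mark the words GAGAGA and CACACA and the cores TAATTA and TAACTA on either strand, so that TCTCTC and TGTGTG are the reverse complements of the first pair. Leaving out 1 chromosome arm from which no sequence is printed, the 4 strongest replicate 2 only regions lay at the promoter of Syp (chr3R:20782703-20782903), in an intron of glec (chr3R:21853860-21854060), in an intron of spg (chr3R:28861422-28861622) and in an intron of crp (chr2L:16284643-16284843). The longest GA run, of 41 bases, was in an intron of CHES-1-like (chrX:7690813-7691013). The longest CA run, also of 41 bases, was intergenic, with CG11964 as the nearest gene by start site (chr3R:8949435-8949635). The window at the promoter of lbl (chr3R:21434219-21434419) was added after its values were seen, because lbl is the paralogue of the tagged gene. Syp, glec, spg and crp windows held 2, 10, 14 and 3 GAGAGA words, counted with overlaps.
Syp promoter: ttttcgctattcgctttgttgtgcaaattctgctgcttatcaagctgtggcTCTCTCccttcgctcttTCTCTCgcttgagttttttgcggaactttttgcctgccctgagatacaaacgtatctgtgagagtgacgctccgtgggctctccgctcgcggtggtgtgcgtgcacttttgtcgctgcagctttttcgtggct
glec intron: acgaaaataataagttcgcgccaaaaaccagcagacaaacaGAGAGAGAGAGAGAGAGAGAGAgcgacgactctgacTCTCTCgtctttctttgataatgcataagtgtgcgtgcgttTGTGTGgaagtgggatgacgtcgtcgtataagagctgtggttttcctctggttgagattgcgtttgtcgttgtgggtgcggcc
spg intron: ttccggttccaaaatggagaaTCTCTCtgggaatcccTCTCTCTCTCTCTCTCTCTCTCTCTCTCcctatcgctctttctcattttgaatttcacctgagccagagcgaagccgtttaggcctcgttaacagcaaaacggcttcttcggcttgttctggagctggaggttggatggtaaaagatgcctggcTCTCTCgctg
crp intron: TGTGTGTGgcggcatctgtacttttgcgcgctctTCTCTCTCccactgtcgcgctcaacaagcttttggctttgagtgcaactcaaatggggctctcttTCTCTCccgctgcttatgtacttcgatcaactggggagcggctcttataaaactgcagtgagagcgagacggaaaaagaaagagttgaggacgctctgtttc
CHES-1-like intron: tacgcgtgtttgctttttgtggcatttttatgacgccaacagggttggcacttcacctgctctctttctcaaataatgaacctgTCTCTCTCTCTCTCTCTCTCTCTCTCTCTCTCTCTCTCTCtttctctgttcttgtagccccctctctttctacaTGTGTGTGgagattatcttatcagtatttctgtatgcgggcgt
CG11964 intergenic: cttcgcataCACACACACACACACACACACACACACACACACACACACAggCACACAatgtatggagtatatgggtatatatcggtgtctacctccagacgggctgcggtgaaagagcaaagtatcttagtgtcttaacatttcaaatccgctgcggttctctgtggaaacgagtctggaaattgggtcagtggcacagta
lbl promoter: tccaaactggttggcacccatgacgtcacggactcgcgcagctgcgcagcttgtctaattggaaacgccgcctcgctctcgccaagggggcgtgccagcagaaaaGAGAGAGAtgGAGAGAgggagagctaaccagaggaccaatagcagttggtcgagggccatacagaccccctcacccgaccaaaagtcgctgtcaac

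For contrast, the 2 strongest matched regions of replicate 2 were in introns of CG11050 (chr2L:6612611-6612811) and ush (chr2L:480950-481150), and the 2 strongest replicate 1 only regions were at the promoters of CG13101 (chr2L:8985008-8985208) and Gk1 (chr3L:205841-206041). The CG11050 window held 2 TAATTA cores and no GA or CA repeat. The CG13101 window held 2 GAGAGA words in sequence of 72.6% A+T, and the Gk1 window none of the marked words at 74.1% A+T. The windows of Syp and glec had 48.8% and 51.7% A+T.
CG11050 intron, matched: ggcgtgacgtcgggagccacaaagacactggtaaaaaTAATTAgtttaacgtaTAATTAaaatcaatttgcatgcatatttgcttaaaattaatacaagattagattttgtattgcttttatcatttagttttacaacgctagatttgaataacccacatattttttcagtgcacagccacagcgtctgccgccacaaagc
ush intron, matched: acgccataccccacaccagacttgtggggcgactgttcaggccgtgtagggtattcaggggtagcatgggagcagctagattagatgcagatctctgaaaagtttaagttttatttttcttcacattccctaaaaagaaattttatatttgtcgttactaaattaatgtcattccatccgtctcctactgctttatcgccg
CG13101 promoter, replicate 1 only: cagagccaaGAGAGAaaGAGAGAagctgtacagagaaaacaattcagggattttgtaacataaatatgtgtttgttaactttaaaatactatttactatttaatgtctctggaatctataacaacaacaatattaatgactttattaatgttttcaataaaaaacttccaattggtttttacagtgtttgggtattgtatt
Gk1 promoter, replicate 1 only: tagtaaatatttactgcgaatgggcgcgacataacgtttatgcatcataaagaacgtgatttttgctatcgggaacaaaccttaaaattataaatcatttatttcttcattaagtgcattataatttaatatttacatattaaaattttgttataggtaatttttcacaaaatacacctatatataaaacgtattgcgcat

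The replicate 2 only regions were weaker than the matched ones within replicate 2, as the rule favours. Their signals, on the scale of the authors' peak caller, ran between 43.0 and 206 with a median of 54.6, against 43.1 to 662 with a median of 71.0 for the matched regions. Their best rank was 100 and their median rank 3153. All 1869 carried the highest −log10 q-value of the replicate 2 list, as did the matched regions, so that value did not order them. The full deposited width of 410 bp was found for 1821 of them (97.4%) and for 2387 matched regions (81.9%).

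Most of these regions had a replicate 1 region at a lower rank. The replicate 1 list holds background regions as well as peaks, so a listed region need not be a peak. The share that would match by position alone was not estimated. In the whole replicate 1 list, 1317 of the 1869 had a summit within 200 bp, at ranks of 4783 to 29874 with a median of 9240, and 689 of those ranks were no worse than 9564. The other 552 (29.5%, interval 27.5 to 31.6%) had no replicate 1 region within 200 bp. The replicate 1 only regions gave a similar split, with 579 of 1951 (29.7%) lacking any replicate 2 region. Within 200 bp, the pooled list held a region for 1709 of the 1869 (91.4%). The authors' IDR list holds peaks past a threshold on the irreproducible discovery rate. It had a peak within 200 bp for 698 of the 1869 (37.3%, 35.2 to 39.6%), for 2861 matched regions (98.2%) and for 1148 replicate 1 only regions (58.8%). Of the 552 with no replicate 1 region, 13.4% had an IDR peak within 200 bp. Those IDR summits could lie up to 200 bp from the replicate 2 summit. Whether a replicate 1 region lay near the IDR summits themselves was not measured. The pooled and IDR lists were made from the same libraries, so these shares are a description.

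**Figure D1:**
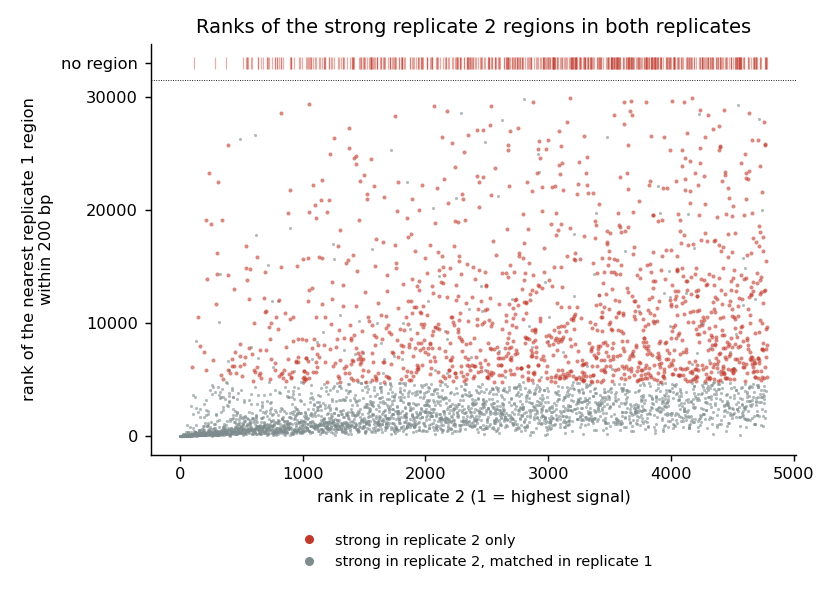
Rank of each strong replicate 2 region in replicate 2 (x axis) against the rank of the nearest replicate 1 region within 200 bp (y axis), with 1 as the highest signal; ticks in the top band are regions with no replicate 1 region. The 1869 replicate 2 only regions (red) lie at replicate 1 ranks of 4783 and worse or in the top band with 552 of them; a grey point above rank 4782 is a matched region whose nearest replicate 1 region was not the strong one.

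Neither threshold fell in a gap of the data. The 5 regions just inside the rank threshold had signals of 43.035 (nearest gene by start site Men-b), 43.033 (ich), 43.028 (mei-38), 43.024 (p) and 43.022 (lncRNA:CR45588). The 5 unmatched regions just outside had 43.020 (lncRNA:CR44867), 43.018 (lncRNA:CR44281), 43.011 (lncRNA:CR43622), 43.003 (saturn) and 42.994 (lncRNA:CR44281). By distance, 89 of the 1869 had a strong replicate 1 summit between 201 and 250 bp away, while 399 strong replicate 2 regions counted as matched at 101 to 200 bp. A strong replicate 1 summit lay within 1000 bp of 489 of the replicate 2 only regions (26.2%), and a matched replicate 2 summit within 1000 bp of 260 (13.9%).

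Position relative to genes differed from that of the matched regions by a few percentage points. Of the 1869 summits, 987 (52.8%, 50.5 to 55.1%) lay within 500 bp of the transcription start site (TSS) of any protein-coding gene or RNA gene, here called promoters, against 1628 matched summits (55.9%, 54.1 to 57.7%) and 1077 replicate 1 only summits (55.2%). The difference from matched regions was -3.08 percentage points, with a 95% Newcombe interval of -5.97 to -0.187. Introns held 621 (33.2%) of the replicate 2 only summits and 873 (30.0%) of the matched ones, a difference of 3.26 points (0.563 to 5.97). Intergenic sequence held 188 replicate 2 only (10.1%) and 338 matched summits (11.6%).

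Within promoters the summits sat differently around the TSS. Upstream of the nearest TSS were 637 of the 987 replicate 2 only promoter summits (64.5%, 61.5 to 67.5%), against 1253 of 1628 matched ones (77.0%, 74.9 to 78.9%) and 834 of 1077 replicate 1 only ones (77.4%). The difference from matched regions was -12.4 points (-16.1 to -8.82). The median summit was 52 bp upstream of the TSS (offset -52 bp, quartiles -135 and 43 bp) in the replicate 2 only set, and at offsets of -80 bp (quartiles -158 and -9 bp) in the matched set and -78 bp in the replicate 1 only set. The upper quartile of the replicate 2 only set was therefore on the transcribed side.

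Coding exons away from promoters were rare in every set. They held 9 replicate 2 only summits (0.482%, 0.254 to 0.913%), 2 matched ones (0.0687%) and 1 replicate 1 only summit (0.0513%), and the difference from matched regions was 0.413 points (0.122 to 0.847). The strongest of the 9 lay in Kdm2, which encodes a histone demethylase, with signal 115 and no replicate 1 region. The others lay in RanBPM, rgr, bin3, Sdb, fng, CG18473, Ziz and eEF5, with signals of 43.9 to 83.3, and 6 of the 9 had a weaker replicate 1 region. These 9 were named after their values were seen.

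Base composition separated the sets more than position did. The 201 bases around the summit were 55.0% A+T (SD 7.67 over 1869 regions), against 62.5% (SD 7.26) in the 2913 matched regions and 65.4% (SD 5.33) in the 1951 replicate 1 only regions. Windows centred 600 bp to either side had 58.9% A+T in the replicate 2 only set, 56.8% in the matched set and 56.2% in the replicate 1 only set. Replicate 2 only summits were thus 3.90 points less A+T-rich than their own surroundings (difference -3.90), while the matched and replicate 1 only summits exceeded theirs by 5.69 and 9.23 points. The summit was richer in A+T than its flanks in 599 replicate 2 only regions (32.0%), 2065 matched regions (70.9%) and 1656 replicate 1 only regions (84.9%). Over all 29967 regions of the replicate 2 list on these chromosomes, mean A+T at the summit was 58.9%.

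**Figure D2:**
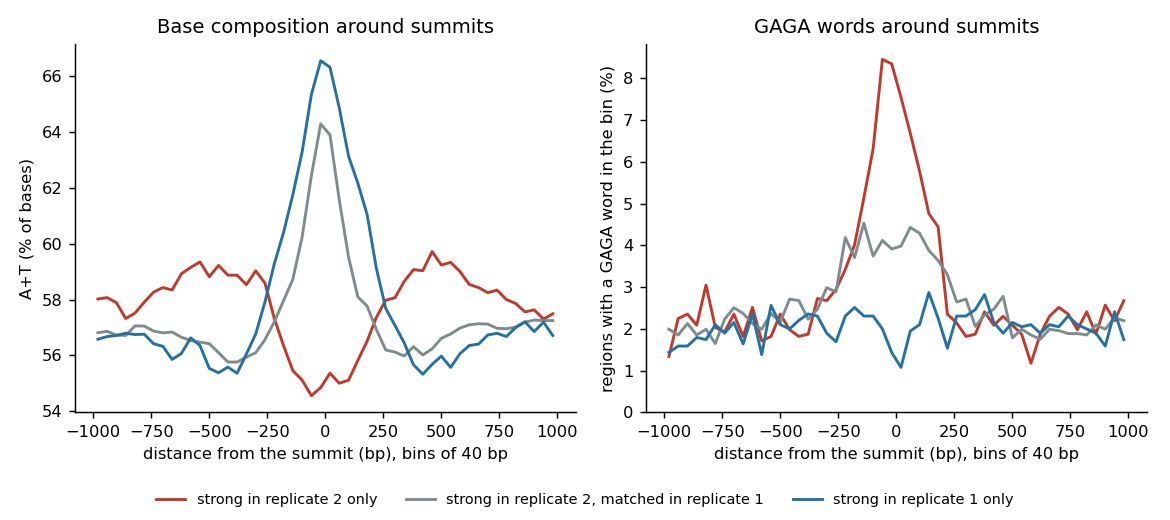
Mean A+T content (left) and share of regions with a GAGA word, GAGAGA or its complement (right), in bins of 40 bp by distance from the summit, for the replicate 2 only (red), matched (grey) and replicate 1 only (blue) regions. The red A+T line dips at the summit while the other lines peak there, with window means of 55.0%, 62.5% and 65.4%, and the red line has the tallest central peak of GAGA words.

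Simple repeats with G and C were more frequent at these summits. GAGAGA, on either strand, occurred within 100 bp of 514 of the 1869 summits (27.5%, 25.5 to 29.6%), against 464 matched (15.9%, 14.6 to 17.3%) and 149 replicate 1 only summits (7.64%, 6.54 to 8.90%). In the flanking windows the shares were 8.72% for replicate 2 only, 8.75% for matched and 8.59% for replicate 1 only regions, so the replicate 2 only summits carried it 3.15 times as often as their flanks, the matched ones 1.82 times and the replicate 1 only ones 0.890 times. CACACA occurred at 570 replicate 2 only summits (30.5%, flanks 18.9%), 562 matched summits (19.3%, flanks 19.3%) and 283 replicate 1 only summits (14.5%, flanks 17.8%). One or both of these repeats was present at 48.9% of the replicate 2 only summits, against 31.3% of matched ones, a difference of 17.6 points (14.8 to 20.4). Over the whole replicate 2 list, GAGAGA was found at 11.8% and CACACA at 19.8% of summits.

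Longer repeat runs followed the same order. An uninterrupted GA run of 10 bases or more, as in the glec and spg windows printed above, was found at 133 replicate 2 only summits (7.12%, 6.04 to 8.37%), 81 matched summits (2.78%, 2.24 to 3.44%) and 7 replicate 1 only summits (0.359%). CA runs of that length were found at 132 replicate 2 only (7.06%), 72 matched (2.47%) and 24 replicate 1 only summits (1.23%). Runs of 20 bases or more were few, with 17 GA runs in the replicate 2 only set, 10 in the matched set and 0 in the replicate 1 only set (upper bound 0.197%).

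The homeodomain words were less frequent. TAATTA occurred at 123 replicate 2 only summits (6.58%, 5.54 to 7.80%), 435 matched (14.9%, 13.7 to 16.3%) and 363 replicate 1 only summits (18.6%, 16.9 to 20.4%). Its share in the flanks was 13.2% for replicate 2 only, 11.6% for matched and 10.6% for replicate 1 only regions, so it stood at 0.497 times the flank share in the replicate 2 only set, 1.29 times in the matched set and 1.75 times in the replicate 1 only set. TAACTA occurred at 95 replicate 2 only (5.08%), 347 matched (11.9%) and 229 replicate 1 only summits (11.7%), and 0.511 times the flank share in the replicate 2 only set. Over the whole replicate 2 list TAATTA was at 13.0% and TAACTA at 8.82% of summits. A match is a description of letters near the summit and says nothing of whether the factor bound there.

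Further words were searched in the same windows. The DRE, an element bound by the promoter factor Dref, was at 2.94% of replicate 2 only, 4.77% of matched and 6.15% of replicate 1 only summits, above flank shares of 0.856% for replicate 2 only, 0.566% for matched and 0.615% for replicate 1 only regions. Motif 1, bound by M1BP, was at 2.35% of replicate 2 only, 2.54% of matched and 4.05% of replicate 1 only summits. The Zelda word CAGGTA, a target of the early embryonic pioneer factor, was at 6.21% of replicate 2 only summits, 4.43% of matched and 3.95% of replicate 1 only summits. The difference from matched regions was 1.78 points (0.487 to 3.15). The E-box CAGCTG was at 11.7% of replicate 2 only, 11.5% of matched and 11.2% of replicate 1 only summits, and its difference from matched regions was 0.252 points (-1.58 to 2.15). The CAG-repeat word GCAGCA was at 22.7% of replicate 2 only, 14.7% of matched and 10.6% of replicate 1 only summits. Runs of 6 A bases were at 37.0% of replicate 2 only, 45.6% of matched and 51.9% of replicate 1 only summits.

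**Figure D3:**
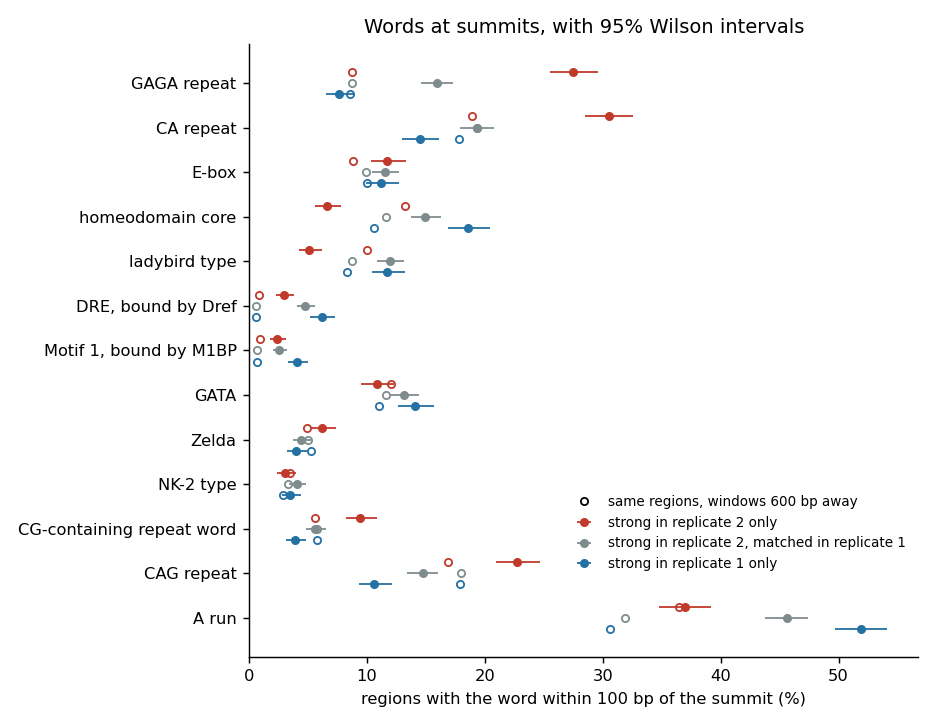
Share of regions with each of 13 words within 100 bp of the summit (filled points, with 95% Wilson intervals) and in windows 600 bp away (open points), for replicate 2 only (red), matched (grey) and replicate 1 only (blue) regions. The GAGA repeat stands at 27.5%, 15.9% and 7.64% and the homeodomain core at 6.58%, 14.9% and 18.6%, in the order red, grey, blue.

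Among the 1663 words of 6 letters found at 5% or more of either replicate 2 set, those with the greatest excess at replicate 2 only summits were CGGGAG (7.49% against 2.71% of matched summits), CTCCTC (10.5% against 3.95%), AGGAGG (6.10% against 2.37%), CGAGAG (21.3% against 8.65%) and CCCCGC (7.28% against 3.02%). Each was also rarer at replicate 1 only summits than at matched ones, with 3.74% for CGAGAG as the highest of the 5. The most depleted words were CTAATA (4.44% against 12%), CTATTA (4.23% against 10.9%), AACTAT (6.10% against 15.4%), AATAGT (5.83% against 14.2%) and ATCTAA (4.92% against 11.6%). Each of these 5 has 1 G or C base, and each of the raised words at least 4.

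The word shares moved with base composition. Among windows under 50% A+T, GAGAGA was at 40.7% of 501 replicate 2 only summits (36.5 to 45.1%) and 41.8% of 189 matched ones (35.0 to 48.9%). Between 50% and 60% A+T it was at 29.8% of 904 replicate 2 only (26.9 to 32.8%) and 25.2% of 770 matched summits (22.3 to 28.4%). Between 60% and 70% it was at 9.77% of 399 replicate 2 only (7.23 to 13.1%) and 10.8% of 1534 matched summits (9.30 to 12.4%). The separate intervals overlapped in all 3 bands, which does not show that the shares were equal, and in the middle band the replicate 2 only share was the higher. No interval of the difference was computed within a band. Windows of 70% A+T or more were left out of this split. CACACA in the middle band was at 35.2% (32.1 to 38.3%) of replicate 2 only and 27.1% (24.1 to 30.4%) of matched summits. TAATTA there was at 4.31% (3.17 to 5.84%) of replicate 2 only and 7.66% (5.99 to 9.76%) of matched summits. The intervals did not overlap for either word in that band, but they did in the bands on both sides. Under 50% A+T, CACACA was at 32.9% of replicate 2 only and 36.0% of matched summits, so the matched share was the higher. TAATTA under 50% was at 1.40% of replicate 2 only and 1.59% of matched summits. Between 60% and 70%, CACACA was at 19.5% of replicate 2 only and 16.2% of matched summits. In the band of 60% to 70% A+T, TAATTA was at 14.0% (11.0 to 17.8%) of replicate 2 only and 16.3% (14.5 to 18.2%) of matched summits. The sets also differed in how many regions fell in each band and in mean A+T within it. In the middle band that mean was 54.8% for replicate 2 only and 56.0% for matched summits. It was lower for replicate 2 only in the bands on both sides too. The bands thus did not compare summits of equal A+T.

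Strength within replicate 2 went with GAGAGA in both sets and with A+T in the replicate 2 only set. The difference between the sets in GAGAGA and A+T was present at every level. In ranks 1 to 1196, GAGAGA was at 41.4% of 186 replicate 2 only summits (34.6 to 48.6%) and 21.2% of 1010 matched ones (18.8 to 23.8%). In ranks 1197 to 2391 it was at 34.8% of replicate 2 only and 16.5% of matched summits, and in ranks 2392 to 3586 at 24.4% of replicate 2 only and 12.5% of matched ones. In ranks 3587 to 4782 it was at 22.2% of replicate 2 only summits (19.3 to 25.4%) and 8.52% of matched ones (6.36 to 11.3%). Mean A+T in these bands was 51.7%, 53.8%, 55.0% and 56.4% for the replicate 2 only regions, against 62.0%, 62.3%, 63.2% and 62.9% for the matched ones. The strongest replicate 2 only regions were thus the poorest in A+T, with TAATTA at 3.23% of summits in the strongest band and 9.53% (7.57 to 11.9%) in the weakest. Matched summits held TAATTA at 14.7% in the strongest band and 14.2% (11.4 to 17.6%) in the weakest, where the intervals of the 2 sets overlapped.

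**Figure D4:**
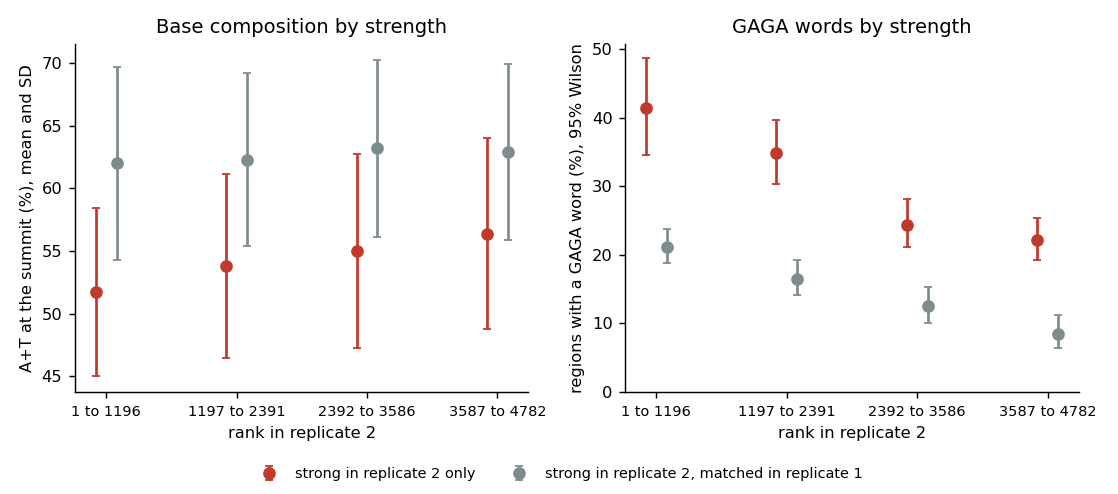
Mean A+T at the summit with its SD over regions (left) and share of summits with a GAGA word with 95% Wilson intervals (right), by band of the replicate 2 rank, for replicate 2 only (red) and matched (grey) regions. The red GAGA share runs through 41.4%, 34.8%, 24.4% and 22.2% and stays above the grey one in each band.

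The regions with no replicate 1 region were the poorer in A+T. GAGAGA was at 28.8% (25.2 to 32.7%) of the 552 without one and 27.0% (24.6 to 29.4%) of the 1317 with a weaker one, and CACACA at 30.8% of those without and 30.4% of those with one. Mean A+T was 52.7% (SD 7.21) without and 55.9% (SD 7.66) with a weaker replicate 1 region. The excess of GAGAGA over matched regions was seen at promoters (30.0% of 987 replicate 2 only against 15% of 1628 matched summits) and in introns (25.4% of 621 replicate 2 only against 17.8% of 873 matched summits). In intergenic regions the values were 19.1% of 188 replicate 2 only (14.2 to 25.4%) and 13.9% of 338 matched summits (10.6 to 18.0%), whose intervals overlapped.

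The 20 strongest replicate 2 only regions comprised 12 promoters, 7 introns and 1 other exon, and all 20 had an IDR peak within 200 bp. GAGAGA was at 10 of them, CACACA at 10 and TAATTA at 1, and their A+T ranged between 35.3% and 62.2%. In 17 of the 20 replicate 1 had a weaker region. The strongest lay 180 bp upstream of a TSS of Syp, which encodes an RNA-binding protein, with signal 206 at rank 100 in replicate 2 and rank 6078 in replicate 1. The intron of glec had signal 194 at rank 118 and no replicate 1 region. The promoter of lola, a BTB zinc finger gene, had signal 182 at rank 150, and its replicate 1 rank was 10553.

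The rest of the 20 had signals of 133 to 175. Introns of Sin3A, a corepressor scaffold, and CtBP, also a corepressor, had signals of 175 and 151, with replicate 1 ranks of 7973 and 18719. The promoter of Kdm2 had signal 154 and a replicate 1 rank of 23245, in the window poorest in A+T of the 20 (35.3%). A region at HmgZ, one of a pair of HMG-box genes with HmgD, had signal 143. Introns of spg, which encodes a DOCK-family exchange factor, and crp, a bHLH factor gene, had 166 and 163. The others lay at or nearest to CG5853 (163), mir-317 (159), ec (148), COX7AL2 (146, no replicate 1 region), CG10543 (142), stv (142), Ak3 (141), noc (137), lncRNA:CR45297 (136), CG7029 (135) and CG5098 (133, no replicate 1 region).

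Both regions within 10000 bp of lbe or lbl belonged to lbl. One covered chr3R:21434114-21434523, centred 186 bp upstream of the lbl TSS, with signal 86.8 at rank 1172 in replicate 2 and rank 8084 in replicate 1. Its window, printed above, had 41.3% A+T, and an IDR peak lay within 200 bp. The other covered chr3R:21416859-21417268 in an lbl intron, with signal 68.5 at rank 1966, no replicate 1 region, no IDR peak and 49.8% A+T. Neither window held TAATTA or TAACTA.

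The genes near these regions were described with gene lists, counting a gene when a summit lay within 1000 bp of any of its TSSs. Of all 13945 protein-coding genes, 1233 (8.84%) had a replicate 2 only summit by that rule, 2203 (15.8%) a matched summit and 1648 (11.8%) a replicate 1 only summit. The lists were chosen with earlier results of these data known, so their counts are a description and no set test was made. Many genes have several start sites, with a median of 1 over all genes. The median was 1.5 in the mesoderm and EGF receptor lists and 2 in the integrin, contractile, FGF, Hox, guidance, glycolysis and ribosomal lists.

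Ecdysone cascade genes, which encode the nuclear receptors and early factors of the moulting hormone response, had the highest share. A replicate 2 only summit was at 10 of 14 genes (71.4%, 45.4 to 88.3%), a matched summit at 6 (42.9%) and a replicate 1 only summit at 2. The median gene of this list had 3 TSSs, and the part of that number in the count was not tested. Eip74EF, an ETS-domain gene, had signal 114 at rank 561 in replicate 2 and rank 12129 in replicate 1. Eip78C, which encodes a nuclear receptor, had 83.7 with no replicate 1 region. The zinc finger genes crol and br had 83.6 and 80.2. By nearest TSS in place of the 1000 bp window, 11 of the 14 were counted, against 9.59% of all protein-coding genes.

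The BTB zinc finger and GAGA factor genes, which share a protein interaction domain, had such a summit at 7 of 14 (26.8 to 73.2%), a matched one at 5 and a replicate 1 only one at 3, with a median of 3.50 TSSs per gene. The gene of GAGA factor itself, Trl, had signal 127 at rank 421 in replicate 2 and rank 6189 in replicate 1. Besides lola, ttk, which encodes the repressor Tramtrack, had 131 at rank 391 and a replicate 1 rank of 25763. The promoter windows of lola, ttk and Trl each held GAGAGA. The fourth by strength was an intronic region of mod(mdg4), with signal 97.5.

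Septate junction and epithelial polarity genes had a replicate 2 only summit at 11 of 19 (57.9%, 36.3 to 76.9%), a matched one at 7 (36.8%) and a replicate 1 only one at 4. With the 2391 strongest regions of each replicate, 1 of the 19 genes had a replicate 2 only summit; the regions of the 10 others ranked beyond 2391 in replicate 2. The strongest lay in an intron of cora, which encodes the junction protein Coracle, with signal 130 and a replicate 1 rank of 5833. Gli had 62.2 with no replicate 1 region, Atpalpha, the sodium pump subunit, had 61.1, and the polarity gene scrib had 52.0. The 10 others had signals of 44.5 to 62.2.

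Myoblast fusion genes had a replicate 2 only summit more often than a matched one. A replicate 2 only summit was at 9 of 20 (45.0%, 25.8 to 65.8%), a matched summit at 1 (interval 0.888 to 23.6%) and a replicate 1 only summit at 4. The intervals of the replicate 2 only and matched shares did not overlap. With the 2391 strongest regions of each replicate, 2 of the 20 genes had a replicate 2 only summit, while the count over all protein-coding genes was 652 in place of 1233. The strongest were at blow (71.1, no replicate 1 region), mbc (70.7, replicate 1 rank 5271), dock (60.5, no replicate 1 region) and siz (58.1, rank 13042). Blow and Mbc act in the fusing muscle cells, where Mbc is an activator of Rac. The strongest window of each of the 9 genes lacked GAGAGA.

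Mesoderm and muscle regulators were near the background or above it with wide intervals. Of 20 mesoderm and heart factor genes, 5 had a replicate 2 only summit (interval 11.2 to 46.9%), 2 a matched one and 0 a replicate 1 only one. These included the GATA factor genes srp and pnr, with signals of 55.0 and 54.0, their cofactor gene ush with 83.3, and the nuclear receptor gene svp with 51.1 and no replicate 1 region. In the NK homeobox cluster, to which lbe belongs, lbl and C15 were 2 of 6, with 86.8 and 82.6, against 1 with a matched summit. Muscle identity factor genes gave 3 of 23 (sd 116, pdm3 61.5 and en 47.7) and the contractile apparatus 2 of 23 (Actn 46.7 and Tm1 44.5). The Actn region is the same as that counted for usp in the ecdysone list.

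Signalling pathways were represented by ligands, receptors and effectors. A replicate 1 only summit was at 5 of 20 EGF receptor genes, 3 of 20 Notch genes and 5 of 21 Wnt genes. EGF receptor genes gave 7 of 20 (35.0%, 18.1 to 56.7%) for replicate 2 only and 7 of 20 for matched summits, with the ligand gene spi at 75.5 and the adaptor gene drk at 72.6, both without a replicate 1 region. The pathway's repressor gene aop had 69.8, and the receptor gene Egfr had 63.3. Notch genes gave 7 of 20 for replicate 2 only and 8 of 20 for matched summits, with E(spl)mbeta-HLH at 106, E(spl)m3-HLH at 102, the coactivator gene mam at 88.0 and the glycosyltransferase gene fng at 79.3. Wnt genes gave 7 of 21 (33.3%) for replicate 2 only and 5 of 21 for matched summits, with Axn at 65.5 and the receptor genes fz and fz4 at 59.6 and 59.5. The Axn region is also that of RpS28a in the ribosomal list.

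Hedgehog and segment polarity genes gave 3 of 15 for replicate 2 only and 0 of 15 for both other sets, namely the receptor gene ptc (90.9, replicate 1 rank 29355), the transcription factor gene ci (61.1) and en (47.7). Dpp genes gave 4 of 15 (shn 102, the ligand gene dpp 67.2, Dad 54.6 and the receptor gene tkv 46.7). The strongest summit of each of these 4 had no replicate 1 region within 200 bp. Of the same 15 genes, 6 had a matched summit and 6 a replicate 1 only summit. Guidance genes gave 3 of 13 (robo2 55.2, fra 52.7 and Sema2b 45.3), Hox genes and cofactors 2 of 14 (hth 77.0 and cad 49.7), neuronal factors 3 of 25 (nub 68.4, sc 65.5 and svp) and FGF genes 0 of 7. Gap and pair-rule genes gave 1 of 19, hry, with 115. Integrin adhesion genes gave 5 of 20, led by stck (80.8), LanA (75.4) and mys (70.7).

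In the ribosomal, proteasome, insulator, Polycomb, heat shock and glycolysis lists, more genes had a matched than a replicate 2 only summit. The same was true over all protein-coding genes (15.8% against 8.84%) and in the integrin, contractile, FGF, Notch, Dpp and chemoreceptor lists. Compared with 8.84%, the replicate 2 only share was lower in the proteasome list. In the insulator list it was near that value, at 7.69% with a wide interval (1.37 to 33.3%). The replicate 2 only share was higher in the ribosomal, Polycomb, heat shock and glycolysis lists. Ribosomal protein genes gave 13 of 86 (15.1%, 9.05 to 24.2%) for replicate 2 only, 47 (54.7%, 44.2 to 64.7%) for matched and 19 (22.1%) for replicate 1 only summits, with RpL26 as the strongest at 97.6. Proteasome genes gave 0 of 48 for replicate 2 only (upper bound 7.41%), 7 for matched (14.6%) and 11 for replicate 1 only summits (22.9%). Insulator genes gave 1 of 13, mod(mdg4), for replicate 2 only against 7 for matched summits. Polycomb and Trithorax genes gave 5 of 24 for replicate 2 only against 13 for matched summits, with kis at 113 and ph-d at 54.5 after Trl. Heat shock genes gave 4 of 16 for replicate 2 only against 9 for matched summits (Hsp67Ba 90.3, Hsc70-3 70.5, Hsp22 59.4 and Hsp68 53.4), and glycolysis genes 5 of 12 for replicate 2 only against 7 for matched summits (Pgk 86.4, Hex-A 83.6, PyK 51.6 and Ald1 48.8). Chemoreceptor genes gave 0 of 119 replicate 2 only (upper bound 3.13%) and cuticle protein genes 0 of 123 (upper bound 3.03%).

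**Figure D5:**
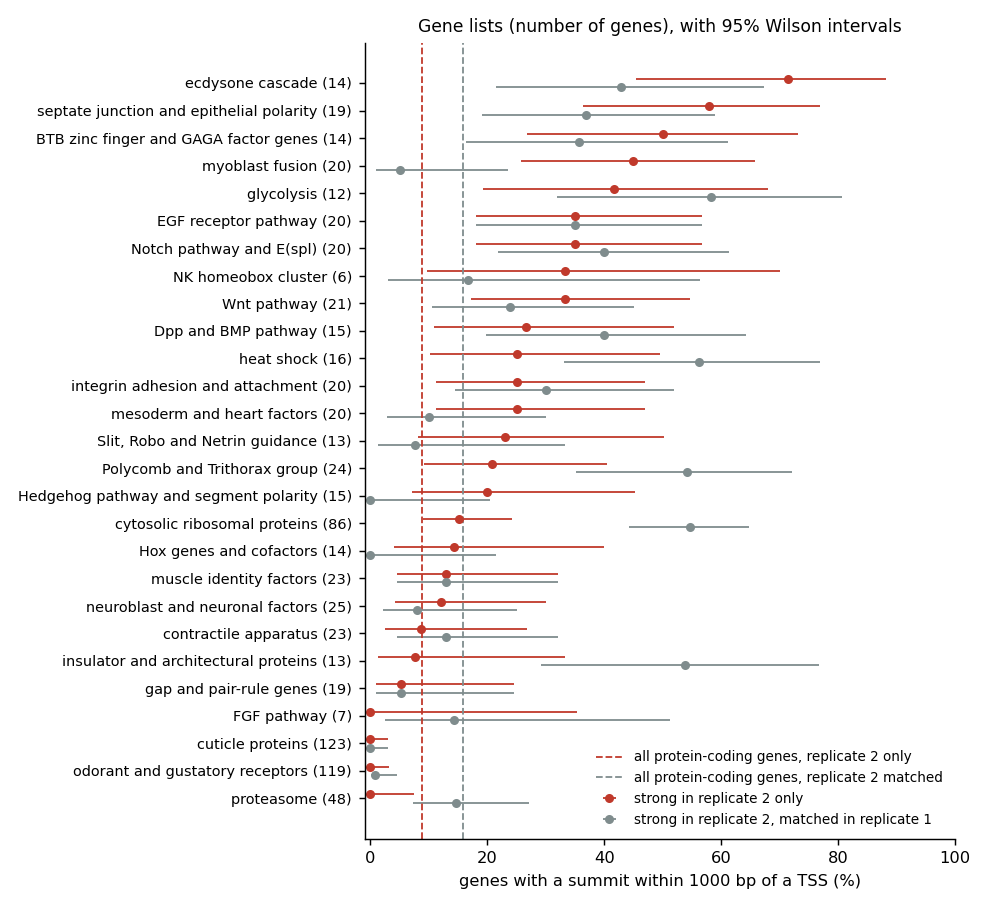
Share of the genes of each list with a replicate 2 only summit (red) or a matched summit (grey) within 1000 bp of a TSS, with 95% Wilson intervals; dashed lines are the shares over all protein-coding genes, 8.84% and 15.8%. The ecdysone, septate junction, BTB and myoblast fusion lists lead for red points, while ribosomal, insulator and Polycomb lists have grey points above 50%.

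Several long genes held many of these regions. Counting summits inside each gene and in the 2000 bp before it, 1651 protein-coding genes had at least 1 replicate 2 only region, 378 at least 2 and 27 at least 5. Eip75B, an ecdysone-induced nuclear receptor gene of 114 kb, had the most, with 12 replicate 2 only, 11 matched and 3 replicate 1 only regions. Its 12 signals ran between 48.3 and 112, 11 lay in introns, 8 windows held GAGAGA and 3 lacked a replicate 1 region. The strongest, in an intron, ranked 601 in replicate 2 and 10005 in replicate 1.

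Mur2B followed with 10, against 3 matched regions, but it overlaps br, which had 7 against 1, so that regions are shared between them. The genes with 9 were Tet, which encodes the fly TET dioxygenase, jing, psq, sbb and shn, with 8, 7, 6, 13 and 8 matched regions. Tlk, a kinase gene, had 8, and 8 matched regions. At 7 regions 4 genes tied, of which InR and br were taken among the 10. InR, the insulin receptor gene, had 7 against 3 matched regions, and 5 of its 7 windows held GAGAGA. Mean A+T at the replicate 2 only summits of these 10 genes ranged between 48.8% (br) and 55.7% (sbb). Lengths of the 10 genes were 49.1 to 145 kb, and longer genes offer more positions for a summit.

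The regions were spread over the chromosomes at 14.2 to 15.1 per Mb on the arms of chromosomes 2 and 3 and 11.4 per Mb on the X, while matched regions had 21.4 to 23.3 per Mb on those arms and 20.3 per Mb on the X. Chromosome 4 held 9 of them (6.68 per Mb), 5 matched regions (3.71 per Mb) and 22 replicate 1 only regions (16.3 per Mb). The strongest of the 9 was at the promoter of zfh2, a zinc finger homeodomain gene, with signal 108. The others had signals of 44.8 to 71.4 and lay at or in zfh2, ci, Asator, ey, pan and the RNA gene asRNA:CR43957. The regions with signals of 71.4 and 45.2 lay in exons of asRNA:CR43957, with ci as the nearest gene by start site. The region with 61.1 lay in ci, at the promoter of asRNA:CR43957. The chromosome 4 regions were named after their values were seen.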

How the data were processed

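ChIP-seq region lists of the 2 biological replicates, their pool and the peaks past the IDR threshold were used in dm6, and the dm3 lists for a count alone. Per the file headers, the deposited lists hold peak and background regions called against a control; no aligner or caller is named in the sources used here. The authors deposited a signal per region, whose scale is not given. Signals were therefore compared only within a list and replicates by rank. The deposited −log10 q-value was equal for all strong replicate 2 regions. Of the 29999 regions of each replicate list, 29967 lay on the chromosomes used, and mitochondrial regions were left out before ranking.

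The 4782 strongest regions of each replicate, as many as there are IDR peaks, were matched by summits within 200 bp. Positions were compared with Ensembl release 115, and sequence was read from the RefSeq release 6 genome. Each summit took the first category that applied, beginning with promoter (500 bp either side of a TSS), then UTRs and coding exon. Of the rest, summits outside genes were intergenic, those in any other exon were called other exon, and those left were intron. Words within 100 bp of the summit were counted on both strands and compared with windows 600 bp away on both sides. In the gene lists, 3 symbols were matched through RefSeq synonyms and 2 were not found. The result of 1 gene list is not reported here. Python 3.11.15, NumPy 2.4.6 and matplotlib 3.10.9 were used. The matching, word counts and Newcombe intervals were tested on simulated data. Promoter calls were checked only on points placed inside the 500 bp window of annotated TSSs, which the rule must call promoters.

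The regions, gene lists and words were chosen with earlier results of these data known. Named items are the 20 strongest regions, the 10 genes with most regions, up to 4 genes per list, regions near lbe and lbl, the 5 regions on each side of the rank threshold and the 5 most raised and lowered words; exceptions are stated. Alternatives changed the matching, the ranking, the TSS window and the word window. Splits by rank, A+T, gene category and replicate 1 region were added after the data were seen.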

Additional observations from a re-analysis of the deposited data

How the results depend on the processing

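No paired analysis was possible because there is 1 group, and each replicate was called alone. Of the 9 summary values, 36 recomputed values stayed within the counting interval of the reported one, or within 1.5 times for counts, and 25 did not. Depth is unknown, and regions of 1 library are not replicates, so the intervals leave out the spread between embryos.

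Matching summits within 100 bp gave A+T of 55.7%, an IDR share of 47.3% and 50.4% of regions with no replicate 1 region, and matching within 500 bp gave 10.8% for the last. With the 2391 strongest regions of each replicate, the set held 945 regions, with GAGAGA at 34.6%, an IDR share of 76.8% and 18.8% without a replicate 1 region. When any region of the whole replicate 1 list removed a match, 552 were left, with 55.3% promoters, A+T of 52.7%, an IDR share of 13.4% and, by construction, 100% without a replicate 1 region. Without replicate 1 the set is all 4782 strong replicate 2 regions, with 0.230% in coding exons, A+T of 59.5%, GAGAGA at 20.5%, TAATTA at 11.7%, an IDR share of 74.4% and 11.5% without a replicate 1 region. Promoters were 39.1% with a TSS window of 200 bp, 64.2% with 1000 bp and 49.0% with protein-coding TSSs alone. With 50 bp either side of the summit, GAGAGA was at 15.9% and TAATTA at 3.16%, since fewer bases were searched. Ranking over all sequences first moved none of the 9 values beyond its interval, and the dm3 lists gave 1990 regions. Except where a value's construction gives the cause, the cause was not tested.

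Some gene list counts were recomputed after the data were seen. In the set from the 2391 strongest regions, septate junction genes with a region were 1 of 19 and myoblast fusion genes 2 of 20, while ecdysone genes were 7 of 14 and BTB genes 7 of 14, with 652 protein-coding genes in all. Without any replicate 1 region nearby they were 3, 5, 6 and 5, with 417 in all.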
